A study of Mus musculus with 12 samples.

Results

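The regions described here were 1515 CpG island windows outside annotated promoters, 2.23% of the 67822 windows of 1000 bp in which H3K27ac was counted in mouse forebrain microglia. A window was taken when the deposited annotation placed it in a CpG island, when the same table called it intronic or intergenic, and when it came from accessible sites listed for both genotypes. H3K27ac, acetylation of lysine 27 of histone H3, had been profiled by chromatin immunoprecipitation and sequencing (ChIP-seq) in CD11b+ cells purified from brain. The groups were Nlrp3-/- mice (Cias1-knockout, credited in the design to Millennium Pharmaceuticals) and wild-type mice on the C57BL/6N background. Each genotype had 3 H3K27ac libraries and 3 input libraries, input being chromatin sequenced without immunoprecipitation. The labels name no further treatment, allele or age that separates the groups, and they do not say whether the libraries of a group came from separate animals. The p-values therefore measure the spread between these libraries, and how much of it is technical is not known. Wild-type replicate 1 differed from the other wild-type replicates at Y-linked genes in both H3K27ac and input, as given below.

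CpG islands are stretches rich in C, G and CG dinucleotides that usually escape DNA methylation, and most gene promoters lie in them. Islands away from annotated promoters, often called orphan islands, can act as alternative promoters or as part of enhancers, and islands at silent developmental regulators are commonly held by Polycomb complexes. H3K27ac is written by CBP and p300 at active promoters and enhancers, and the same lysine cannot be acetylated while it carries Polycomb's methylation. NLRP3 is the sensor of an inflammasome that activates caspase-1.

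The name "away from promoters" was only partly borne out. Of the members, 743 (49.0%) lay under 1 kb from the transcription start site (TSS) given in the table, and all 743 lay downstream of it in introns. The nearest member upstream of a TSS was 1001 bp away and the nearest downstream was 102 bp away. Further out, 338 members lay 1 to 5 kb from a TSS, 351 lay 5 to 50 kb away and 83 lay over 50 kb away, up to 309138 bp. The median distance was 1034 bp. Introns held 1037 members, 888 of them in intron 1, and 478 members were intergenic. Starts of RefSeq genes, matched by coordinates of the same mouse build, lay inside 448 members (29.6%), against 776 (2.68%) of the 28997 intronic or intergenic windows outside islands and repeats that came from both site lists. That comparison set is called non-island windows below.

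These 5 starts are printed because they show what such a window can hold: a neighbouring gene's promoter, non-coding RNA starts far from or near a listed TSS, the start inside a window discussed in the genotype comparison, and an island with no H3K27ac tag. Each run is the RefSeq promoter sequence (GRCm38.p6), from 250 bases before to 50 bases after the start, 5′ to 3′, with CG dinucleotides in capitals.
Lamtor1, chr7:101905587-101905886, plus strand: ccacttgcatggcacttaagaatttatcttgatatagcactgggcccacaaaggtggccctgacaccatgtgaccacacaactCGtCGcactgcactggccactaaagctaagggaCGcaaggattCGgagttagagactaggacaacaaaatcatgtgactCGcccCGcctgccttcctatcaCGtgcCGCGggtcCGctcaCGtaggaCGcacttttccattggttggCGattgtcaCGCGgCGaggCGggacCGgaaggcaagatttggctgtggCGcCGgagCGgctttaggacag
Gm51701, chr9:123924898-123925197, plus strand: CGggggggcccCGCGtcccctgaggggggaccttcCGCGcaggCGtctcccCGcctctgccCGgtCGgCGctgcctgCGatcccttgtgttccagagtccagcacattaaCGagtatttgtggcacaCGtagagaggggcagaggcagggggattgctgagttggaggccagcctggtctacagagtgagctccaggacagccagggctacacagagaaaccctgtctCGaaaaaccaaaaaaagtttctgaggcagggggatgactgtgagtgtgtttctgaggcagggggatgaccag
Cyp2r1, chr7:114562923-114563222, minus strand: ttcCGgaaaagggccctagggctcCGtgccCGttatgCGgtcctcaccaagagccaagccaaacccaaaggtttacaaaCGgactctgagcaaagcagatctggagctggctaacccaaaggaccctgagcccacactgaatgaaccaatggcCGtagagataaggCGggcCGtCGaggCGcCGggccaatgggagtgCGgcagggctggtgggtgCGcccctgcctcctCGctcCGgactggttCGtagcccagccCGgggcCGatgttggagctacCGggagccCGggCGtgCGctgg
Gm31936, chr10:81570634-81570933, plus strand: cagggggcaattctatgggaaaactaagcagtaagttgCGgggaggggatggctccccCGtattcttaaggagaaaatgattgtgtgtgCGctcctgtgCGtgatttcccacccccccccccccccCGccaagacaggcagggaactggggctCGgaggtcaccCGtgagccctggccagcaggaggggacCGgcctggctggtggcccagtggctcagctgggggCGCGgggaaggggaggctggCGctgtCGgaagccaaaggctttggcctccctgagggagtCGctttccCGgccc
A230054N11Rik, chr10:50894485-50894784, minus strand: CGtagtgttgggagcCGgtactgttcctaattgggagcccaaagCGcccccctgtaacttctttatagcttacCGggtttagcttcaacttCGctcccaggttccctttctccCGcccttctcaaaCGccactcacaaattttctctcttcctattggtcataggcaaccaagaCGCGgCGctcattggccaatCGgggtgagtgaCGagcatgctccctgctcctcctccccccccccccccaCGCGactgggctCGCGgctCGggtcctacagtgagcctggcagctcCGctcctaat

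The Lamtor1 start, which belongs to a subunit of the lysosomal Ragulator complex, lay in a window that the table assigned to Tomt. Its promoter sequence held 21 CG dinucleotides, an observed over expected CpG ratio of 0.88 and 56.3% G and C, and 163 of its 300 bases lay inside the window. The long non-coding RNA Gm51701 starts in a window 43866 bp from the listed Ccr1 TSS, with 14 CG dinucleotides and a CpG ratio of 0.51. The Cyp2r1 sequence held 22 CG dinucleotides at a ratio of 0.71, with 212 bases inside the window. The lncRNA Gm31936 starts in a window centred 4273 bp upstream of Tle2 and had 14 CG dinucleotides at a ratio of 0.44, although the window is annotated as an island. The lncRNA A230054N11Rik starts in a window centred 1117 bp upstream of Sim1, with 18 CG dinucleotides at a ratio of 0.74.

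Starts inside members were mostly CpG-rich, which the choice of island windows largely fixed in advance. Non-island windows leave islands out, so lower CpG and GC box shares there also follow from how the sets were defined. Among 532 RefSeq starts inside members with a promoter sequence, 83.5% had a CpG ratio over 0.6 and over 50% G and C. The share was 76.6% of 10050 starts inside promoter windows, 26.1% of 831 starts inside non-island windows and 33.3% of all 32851 starts. The GC box GGGCGG, searched on both strands, occurred in 69.9% of starts inside members, 69.6% of those in promoter windows, 34.4% of those in non-island windows and 35.7% of all starts. The TATA box letters TATAAA, searched likewise, occurred in 5.83% of starts inside members, 5.72% of those in promoter windows, 9.75% of those in non-island windows and 13.6% of all starts. A letter match is a description of the sequence only.

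The libraries held 3726550 to 5028129 H3K27ac tags and 3287009 to 6961590 input tags, where a tag is a counted read. Members took 1.30% to 1.60% of H3K27ac tags and 0.0870% to 0.114% of input tags. At the Nlrp3 promoter window with the strongest loss, Nlrp3-/- libraries held 1, 0 and 16 H3K27ac tags and wild-type libraries 180, 180 and 195. Promoter windows of Y-linked genes held no tag in wild-type replicate 1 and had tags in the other 5 H3K27ac libraries, so that library differs from the others of its group in a way the labels do not give. Promoter windows of 9 of 10 microglial markers had a median of 15.0 times input in Nlrp3-/- and 8.03 times in wild type, against 1.33 times in Nlrp3-/- and 0.989 times in wild type for the only astrocyte marker window and 0.833 times in Nlrp3-/- and 1.44 times in wild type for the only neuronal marker window. The pairs of marker windows of other cells had medians of 1.39 times in Nlrp3-/- and 1.31 times in wild type for oligodendrocytes, 3.07 times in Nlrp3-/- and 2.52 times in wild type for endothelial and mural cells, and 2.50 times in Nlrp3-/- and 1.01 times in wild type for border macrophages. The part of such cells in the results was not tested. The windows analysed included no promoter of the listed monocyte, neutrophil or lymphocyte markers. Only bulk chromatin was measured, so a change in the number of cells of a type and a change per cell cannot be told apart.

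Most tested island windows carried H3K27ac above input when libraries were scaled to total tags. Levels below are tags per 1000000 of a library's total (CPM), and the ratio over input is the group mean CPM over the matching input mean, with 0.5 added to both, which pulls low windows towards 1. The median member stood at 6.88 times input in Nlrp3-/- and 6.42 times in wild type, against 6.19 times in Nlrp3-/- and 5.60 times in wild type for promoter windows and 3.20 times in Nlrp3-/- and 2.91 times in wild type for non-island windows. In Nlrp3-/- libraries, 1104 of the 1198 members that passed the filter for this test were called above input (92.2%, against 74.2% of all 48432 windows tested; edgeR quasi-likelihood test, Benjamini-Hochberg adjusted p under 0.05). In wild-type libraries 1091 were called above input (91.1%, against 71.5% of all windows). With TMM scaling, which centres H3K27ac on input, 400 were called in Nlrp3-/- (33.4%, against 16.2% of all windows) and 417 in wild type (34.8%, against 15.9%). Inside the member set the spread was wide: in Nlrp3-/- 118 members (7.79%) were under input and 526 (34.7%) reached 10 times input, and in wild type 139 (9.17%) were under input and 503 (33.2%) reached 10 times input. Of the 1515 members, 317 did not pass the filter and so are in neither count. A window can pass through its H3K27ac tags alone, so the shares of tested windows favour windows with signal. Over all members, tested or not, 72.9% were called above input in Nlrp3-/-, against 53.0% of all 67822 windows. In wild type these shares were 72.0% of members and 51.1% of all windows.

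The level fell with distance to the TSS. Members under 1 kb had a median of 8.98 times input in Nlrp3-/- and 8.49 times in wild type, and those over 50 kb had 3.67 times in Nlrp3-/- and 2.92 times in wild type. Between them, members at 1 to 5 kb had 5.14 times in Nlrp3-/- and 4.63 times in wild type, and those at 5 to 50 kb had 4.30 times in Nlrp3-/- and 4.21 times in wild type. In Nlrp3-/-, non-island windows stood at 6.48 times under 1 kb, 3.66 times at 1 to 5 kb, 3.06 times at 5 to 50 kb and 2.85 times over 50 kb. In wild type they stood at 5.94, 3.28, 2.78 and 2.60 times in these 4 classes from near to far. In CPM, the member median exceeded the non-island median in 6 of 6 H3K27ac libraries in each class up to 50 kb and in 3 of 6 over 50 kb. Across the 1515 members the Spearman correlation between H3K27ac level and distance was -0.28, and across the 772 members at least 1 kb away it was -0.12. Both are descriptions across windows of the same libraries.

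The higher level of islands at a distance went with crowding of windows. Another window overlapped 1047 members (69.1%), against 37.9% of all windows, and overlapping windows share tags. Among members at least 1 kb from a TSS, the 414 with an overlapping window had a median of 7.60 times input in Nlrp3-/- and 7.45 times in wild type, against 6.34 times in Nlrp3-/- and 5.92 times in wild type for non-island windows that were also overlapped. Over 50 kb, overlapped members had the lower median CPM in 5 of 6 H3K27ac libraries and an equal median in the other. Their median ratio over input was the higher, at 7.65 times in Nlrp3-/- and 6.68 times in wild type. Overlapped non-island windows over 50 kb had 5.91 times in Nlrp3-/- and 5.67 times in wild type. The input median of these members was the lower in 6 of 6 input libraries. The 358 members at least 1 kb away that no other window overlapped had 2.10 times input in Nlrp3-/- and 2.18 times in wild type, against 2.20 times in Nlrp3-/- and 2.07 times in wild type for such non-island windows. In CPM their median was lower than the non-island median in 5 of 6 H3K27ac libraries and higher in 0. Under 1 kb, members with no overlapping window kept a higher level, 5.15 times input in Nlrp3-/- and 5.11 times in wild type, against 2.44 times in Nlrp3-/- and 2.13 times in wild type for non-island windows.

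**Figure D1:**
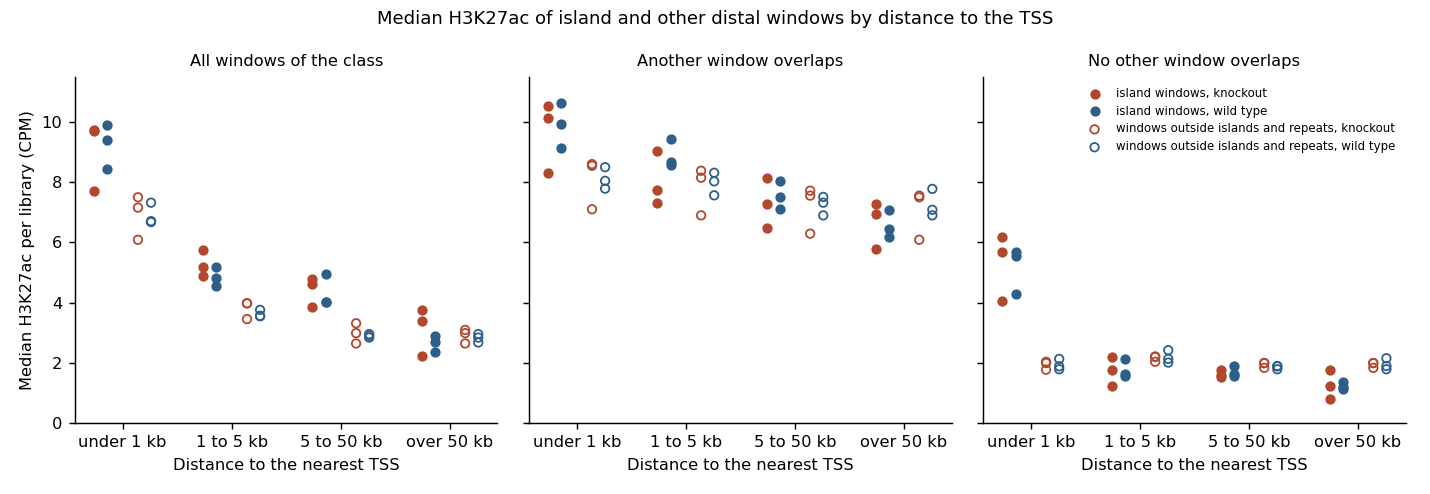
Median H3K27ac per library in CPM (vertical axis) by class of distance to the TSS, for island windows (filled) and non-island windows (open), in Nlrp3-/- (red, left) and wild-type (blue, right) libraries, 1 point per library. The panels show all windows, windows that another window overlaps and windows that none overlaps; in the last panel island windows exceed the others under 1 kb and lie near or below them in the classes further out.

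**Figure D2:**
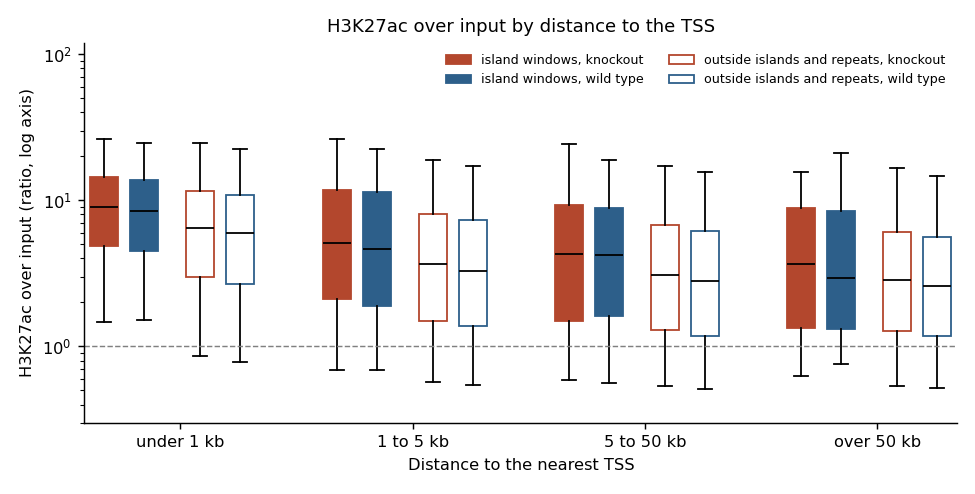
H3K27ac over input per window (log axis) by distance class for island (filled) and non-island (open) windows in Nlrp3-/- (red) and wild type (blue). Boxes span the quartiles with the median as a line, whiskers the central 90% of windows, and the dashed line marks equality with input; the medians decline with distance in both genotypes, from 8.98 to 3.67 times input in Nlrp3-/- island windows.

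The members with the highest H3K27ac were not a distance class of their own. The strongest window lay 21975 bp from the listed TSS of Anp32e, a chaperone that removes the histone variant H2A.Z. It held 305, 415 and 332 tags in Nlrp3-/- libraries and 240, 293 and 196 in wild-type libraries, 72.4 ± 8.77 CPM in Nlrp3-/- and 58.6 ± 10.7 CPM in wild type (SD, n = 3 each). The groups did not overlap in CPM and the window was not called (edgeR log2 fold change 0.30, SE 0.18, adjusted p = 0.998). Next were windows at Lrif1, a heterochromatin-associated factor of the inactive X, with 59.1 ± 7.89 CPM in Nlrp3-/- and 55.1 ± 3.70 in wild type, and at Kdm6b, which removes H3K27 methylation, with 53.0 ± 2.25 CPM in Nlrp3-/- and 59.4 ± 1.58 CPM in wild type. The other 7 of the 10 highest lay at Chd2, Snora65, Snrnp35, 1700073E17Rik, Sirt4, Mnt and 1810026B05Rik. Mnt, a MAX partner that opposes MYC, carried the signal in intron 4, 7684 bp from the TSS, with 51.5 ± 9.28 CPM in Nlrp3-/- and 54.2 ± 3.53 CPM in wild type.

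By the ratio of mean H3K27ac to mean input over both genotypes, the leading windows under 1 kb lay at Eif5, a translation initiation factor, at Slc38a2, a glutamine transporter, and at Mapre1, which binds microtubule ends. The Slc38a2 window stood at 43.9 times input in Nlrp3-/- and 34.6 times in wild type. Between 1 and 5 kb the leaders were Skil, an inhibitor of SMAD signalling, at 56.8 times in Nlrp3-/- and 32.1 times in wild type, Snora65 at 44.2 times in Nlrp3-/- and 55.7 times in wild type and Kdm6b at 31.05 times in Nlrp3-/- and 45.6 times in wild type. At Skil the H3K27ac level itself was 43.2 CPM in Nlrp3-/- and 42.3 CPM in wild type. Its input held 5 tags in Nlrp3-/- and 11 in wild type, so the ratios of the genotypes differ through input. Between 5 and 50 kb they were Anp32e, Mnt and Mir23a, whose window 7474 bp upstream of the microRNA stood at 30.7 times in Nlrp3-/- and 40.9 times in wild type. Over 50 kb they were 1810026B05Rik, Zfp958 and Klf4, a Krüppel-like transcription factor, with 17.4 times input in Nlrp3-/- and 18.6 times in wild type, 118772 bp upstream of the gene.

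The windows whose promoter sequences are printed above spanned this range. The Tomt window that holds the Lamtor1 start had 153, 194 and 188 tags in Nlrp3-/- and 147, 159 and 172 in wild type, 34.1 times input in Nlrp3-/- and 17.2 times in wild type. Its input held 9 tags in Nlrp3-/- and 21 in wild type, and its H3K27ac log2 fold change was -0.05. The Ccr1 window that holds the Gm51701 start had 156, 153 and 195 tags in Nlrp3-/- and 131, 105 and 152 in wild type, 26.6 times input in Nlrp3-/- and 15.6 times in wild type. Here input held 13 tags in Nlrp3-/- and 20 in wild type, and the H3K27ac log2 fold change was 0.18. Another window with the start of a second gene, at Zfp335 and its opposite-strand RNA Zfp335os, stood at 31.5 times in Nlrp3-/- and 25.8 times in wild type. Because ChIP tags carry no information on the transcribed strand, the signal of such a window cannot be divided between the genes. The Sim1 window, at the A230054N11Rik start, had 0 tags in each of the 6 H3K27ac libraries, which allows up to 3 tags, 0.597 to 0.805 CPM, in each. Its input libraries held 1, 5 and 3 tags in Nlrp3-/- and 4, 3 and 3 in wild type.

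Some genes had several island windows. The 1515 members were nearest to 1302 genes, of which 158 had more than 1 member. Bcor, a corepressor of a Polycomb complex that is recruited to CpG islands, had 16, the most of any gene, on chromosome X. Its 16 windows had a median of 6.08 times input in Nlrp3-/- and 5.29 times in wild type, and 9 of the 10 tested were called above input in each genotype, where the share of all windows was 74.2% in Nlrp3-/- and 71.5% in wild type. Their input median was highest in wild-type replicate 1, which lacked Y-linked tags, at 0.424 CPM against 0.203 to 0.304 CPM in the other input libraries. In that library 1 tag was worth 0.212 CPM, and over the input libraries 1 tag was worth 0.144 to 0.304 CPM. These medians thus rest on very few tags, and a link to the missing Y-linked tags was not tested. Kdm6b had 5 windows, between 5.75 and 38.6 times input in Nlrp3-/- and between 7.55 and 45.6 times in wild type, several of which overlap each other. Bcor and the further Kdm6b windows were chosen after their values were seen.

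Most members at least 1 kb away did not exceed the strongest promoter window of their gene in all 6 H3K27ac libraries. For 445 such members the nearest gene also had a promoter window in both site lists. Where a gene had several, the promoter window of highest H3K27ac was used, which can only lower the ratio. The member exceeded that window in all 6 H3K27ac libraries in 87 cases (19.6%) and was at or below it in all 6 in 154 (34.6%). In the remaining cases the libraries were mixed. The median ratio was 0.83. The median ratio was 0.91 at 1 to 5 kb, 0.69 at 5 to 50 kb and 0.64 over 50 kb. Exceeding the promoter window in all 6 was about as rare among the 606 such members under 1 kb, at 111 (18.3%). Of these 606, 143 (23.6%) were at or below it in all 6, and their median ratio was 0.98.

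Between genotypes, no island window was called. Of 1186 members that passed the filter, 0 had an adjusted p under 0.05 (edgeR quasi-likelihood test, Benjamini-Hochberg over all windows tested), against 24 of 40370 windows (0.0595%), and the smallest adjusted p among members was 0.181. At an unadjusted p under 0.05 there were 43 members (3.63%), against 4.69% of all windows. Of these, 21 were higher in Nlrp3-/- (1.77%, against 2.19% of all windows) and 22 lower (1.85%, against 2.5%). The groups did not overlap in 110 members (9.27%), against 10.1% of all windows: 58 with every Nlrp3-/- library above every wild-type library (4.89%, against 5.19%) and 52 below (4.38%, against 4.91%). The median log2 fold change was -0.01 over the members and 0.00 over all windows, with a median SE of 0.40 for members. In the central 90% of members the log2 fold change ran from -0.77 to 0.71. The remaining 329 members had too few tags to be tested. DESeq2 called 2 members of 1296 with an adjusted p (0.140% of all windows), Mpp7 and Marcks, and edgeR without a filter on low counts called 2 of 1507 (0.101% of all windows), Mpp7 and Cyp2r1; all 3 were lower in Nlrp3-/-.

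**Figure D3:**
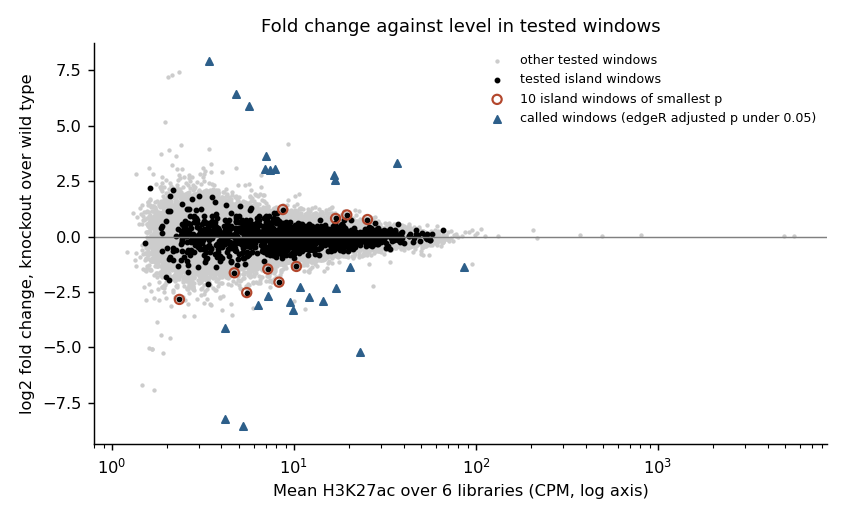
Log2 fold change of Nlrp3-/- over wild type (vertical axis) against mean H3K27ac over 6 libraries (CPM, log axis) for tested island windows (black) and other tested windows (grey). Circles mark the 10 island windows of smallest p and triangles the 24 called windows, none of which is an island window of the set.

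The window with the smallest p lay 66190 bp upstream of Mpp7, a MAGUK scaffold protein of cell junctions. It held 27, 12 and 7 tags in Nlrp3-/- libraries and 35, 50 and 82 in wild-type libraries. The level was 3.26 ± 2.39 CPM in Nlrp3-/- and 13.3 ± 5.33 CPM in wild type (SD, n = 3 each), and edgeR gave log2 fold change -2.06 with SE 0.48 and adjusted p = 0.181. The 2 groups did not overlap, and the pseudogene Gm18763 covers the window. The DESeq2 adjusted p was 0.0143 and edgeR's without a filter was 0.0152. Wild-type replicate 3 was highest, and leaving out 1 library at a time gave log2 fold changes between -2.75 and -1.72. Input tags were 2, 0 and 2 in Nlrp3-/- and 2, 8 and 2 in wild type, and the log2 difference of H3K27ac over input between genotypes was -0.38.

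Marcks encodes an actin-binding substrate of protein kinase C. Its window lies in its only intron, 1749 bp from the TSS, and held 29, 33 and 22 tags in Nlrp3-/- and 55, 57 and 72 in wild type. The libraries did not overlap, at 5.81 ± 1.17 CPM in Nlrp3-/- and 14.8 ± 2.16 CPM in wild type, and edgeR gave log2 fold change -1.35 with SE 0.36 and adjusted p = 0.420, where DESeq2's adjusted p was 0.0489. The window stood at 7.97 times input in Nlrp3-/- and 15.2 times in wild type, with a log2 difference over input of -0.71.

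Cyp2r1 encodes a vitamin D 25-hydroxylase. Its window, which contains the start printed above, held 6, 18 and 0 tags in Nlrp3-/- and 21, 31 and 66 in wild type. The groups did not overlap and the spread was large, 1.63 ± 1.81 CPM in Nlrp3-/- and 9.38 ± 5.42 CPM in wild type, and edgeR gave log2 fold change -2.53 with SE 0.70 and adjusted p = 0.500. Leaving out 1 library at a time gave between -3.80 and -1.98. Input was 10, 6 and 5 tags in Nlrp3-/- and 5, 8 and 9 in wild type, so the ratio over input was 1.08 in Nlrp3-/- and 4.28 in wild type. Only without the filter did edgeR call it, with an adjusted p of 0.0428, and the DESeq2 adjusted p was 0.689.

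The other 7 windows of smallest p were 4 with higher and 3 with lower values. Higher values in Nlrp3-/- were seen at Mynn, a zinc finger protein (log2 fold change 0.97), at Cse1l, an export receptor for importin alpha (0.77), at Gnas, the imprinted gene of the stimulatory G protein alpha subunit (0.82), and at Cdk17, a cyclin-dependent kinase (1.22). Lower values were seen at Tle2, a Groucho-type corepressor (-1.47), Mir704 (-2.84) and Tac4, a tachykinin (-1.64). The Tle2 window, at the Gm31936 start printed above, held 24, 16 and 15 tags in Nlrp3-/- and 36, 56 and 40 in wild type. The Cse1l window held 125, 145 and 191 tags in Nlrp3-/- and 72, 86 and 78 in wild type. The groups of libraries did not overlap in CPM in any of these 7, where 10.1% of all tested windows did not overlap. Choosing windows by small p between the same libraries favours such separation, here as at Mpp7, Marcks and Cyp2r1, so it adds no support. Adjusted p-values from edgeR ran from 0.525 at Mynn to 0.934 at Tac4. With input taken into account, the log2 difference between genotypes was larger at Mynn (1.91), Cse1l (1.51) and Tle2 (-2.48) and smaller at Gnas (0.58), Cdk17 (0.27), Mir704 (-0.92) and Tac4 (-0.13), with input counts of a few tags per library.

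**Figure D4:**
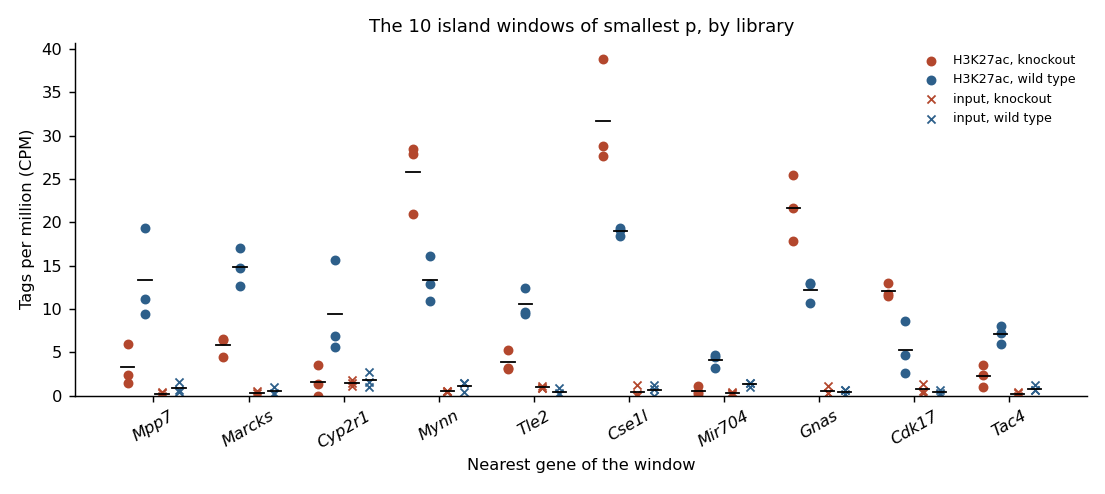
H3K27ac (dots) and input (crosses) in CPM for each library at the 10 island windows of smallest p, Nlrp3-/- in red left of wild type in blue, with bars for group means. H3K27ac libraries of the 2 genotypes separate in all 10 windows, which were selected for a small p, and wild-type replicate 3 is the highest dot at Mpp7 and Cyp2r1.

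Genotype was also compared after accounting for input, by the difference of H3K27ac over input between genotypes. No member of 1198 and no window of 48432 (0.00%) was called in that edgeR fit, and 52 members (4.34%) had an unadjusted p under 0.05, against 4.91% of all windows. Not even the Nlrp3 promoter window of strongest loss was called, although the edgeR fit of H3K27ac alone gave it an adjusted p of 4.88e-06. The absence of calls among members therefore does not show that the genotypes are alike there.

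Islands near listed genes were then described by role. Developmental homeobox and patterning genes had 13 members, 12 of them at least 1 kb from a TSS, with a median of 0.794 times input in Nlrp3-/- and 0.774 times in wild type. In each genotype 7 of the 13 had a ratio under 1. Of the 6 that passed the filter of the test against input, 4 were called above it in each genotype, where the share of all windows was 74.2% in Nlrp3-/- and 71.5% in wild type, and 4 passed the filter of the genotype comparison. Windows at Hoxa7, a body-axis homeobox gene, and at Lhx1, a LIM homeobox gene, had ratios under 1 in both genotypes. Hoxa7 stood at 0.387 times in Nlrp3-/- and 0.475 times in wild type, and Lhx1 at 0.458 times in Nlrp3-/- and 0.581 times in wild type. Both were called below input in Nlrp3-/- only. In wild type the edgeR adjusted p against input was 0.214 at Hoxa7 and 0.323 at Lhx1, with few tags in either window. Those with signal were Pknox1, a broadly expressed homeobox gene (14.7 times in Nlrp3-/- and 14.6 times in wild type), Wnt7b (10.3 times in Nlrp3-/- and 10.4 times in wild type), Dlx2 (6.84 times in Nlrp3-/- and 4.35 times in wild type, 34405 bp away) and Wnt10a (4.26 times in Nlrp3-/- and 5.43 times in wild type). The Wnt7b window holds the start of the non-coding RNA D130051D11Rik.

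Genes of homeostatic microglia and lineage factors, a list that includes immediate early genes, had 18 members in 10 genes, with medians of 6.59 times input in Nlrp3-/- and 8.30 times in wild type. Of 15 tested, 0 were called and 3 had an unadjusted p under 0.05 (20.0%, against 4.69% of all windows), with lower values at Csf2ra and Bhlhe41 and higher at Sall3. Csf2ra, the GM-CSF receptor alpha chain, had 120, 142 and 125 tags in Nlrp3-/- and 148, 141 and 211 in wild type, 26.7 ± 1.45 CPM in Nlrp3-/- and 40.3 ± 9.25 CPM in wild type (edgeR log2 fold change -0.58, SE 0.22, adjusted p = 0.970). At Sall1, a factor of microglial identity, the strongest of 3 windows stood at 33.9 times input in Nlrp3-/- and 19.7 times in wild type, with a log2 fold change of 0.03. Fos, an immediate early gene, had a window 18432 bp upstream at 20.98 times in Nlrp3-/- and 18.96 times in wild type.

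Inflammasome, NF-kB and interferon genes had 12 members, with medians of 11.9 times input in Nlrp3-/- and 10.4 times in wild type. All 11 tested against input were called above it in each genotype, where the share of tested members was 92.2% in Nlrp3-/- and 91.1% in wild type. The share of all tested windows was 74.2% in Nlrp3-/- and 71.5% in wild type. None of 11 tested was called, and 1, at Socs3, an inhibitor of cytokine signalling, had an unadjusted p under 0.05 (9.09% of those tested, against 4.69% of all windows), with a log2 fold change of 1.08. The other 3 Socs3 windows had log2 fold changes of -0.34, 0.13 and 0.39, and the window at 0.13 overlaps the one at 1.08. Nfkbiz, the NF-kB cofactor IκBζ, stood at 29.99 times in Nlrp3-/- and 30.07 times in wild type, Irf5 at 26.4 times in Nlrp3-/- and 19.8 times in wild type, and Mapkapk2, a p38 target kinase, at 20.3 times in Nlrp3-/- and 18.99 times in wild type. Nek7, an NLRP3 partner, stood at 9.76 times in Nlrp3-/- and 9.45 times in wild type. The intronic window of Nfkb2, too low for the test, stood at 0.954 times in Nlrp3-/- and 1.09 times in wild type.

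The series title concerns glutamine breakdown, and glutamine, TCA cycle and glycolysis genes had 14 members, all with a ratio over 1 in both genotypes, at medians of 7.18 times in Nlrp3-/- and 7.42 times in wild type. All 12 members tested against input were called above it in each genotype, where the share of tested members was 92.2% in Nlrp3-/- and 91.1% in wild type. The share of all tested windows was 74.2% in Nlrp3-/- and 71.5% in wild type. Of 13 tested between genotypes, 0 were called and 0 had an unadjusted p under 0.05. Slc38a2 had 190, 147 and 175 tags in Nlrp3-/- and 122, 162 and 210 in wild type, which overlap, with a log2 fold change of -0.14 (SE 0.22). The intron 1 window of Pfkfb3, which sets fructose 2,6-bisphosphate, stood at 21.5 times input in Nlrp3-/- and 32.4 times in wild type. The edgeR adjusted p was 0.998 for both.

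Chromatin acetylation and methylation genes had 35 members in 22 genes, at medians of 6.60 times input in Nlrp3-/- and 8.81 times in wild type. Of 29 tested against input, 27 were called above it in Nlrp3-/- and 26 in wild type. The share of tested members was 92.2% in Nlrp3-/- and 91.1% in wild type, and that of all tested windows 74.2% in Nlrp3-/- and 71.5% in wild type. Between genotypes 29 were tested, 0 were called and 0 had an unadjusted p under 0.05. Brd2, a bromodomain reader of acetylated histones, stood at 23.1 times in Nlrp3-/- and 19.7 times in wild type. The window at Cbx8, a Polycomb subunit, stood at 1.32 times in Nlrp3-/- and 0.466 times in wild type. Its mean H3K27ac was only 0.543 CPM, too low for the test between genotypes. Against input it was not called (edgeR adjusted p = 0.686 in Nlrp3-/- and 0.141 in wild type). Imprinted genes had 7 members, with Gnas, Ube3a and Jade1 the highest, and none of 3 tested was called. The Gnas window alone had an unadjusted p under 0.05 (33.3% of those tested, against 4.69% of all windows). It was already named above among the windows of smallest p. Disease-associated and phagocytic microglia genes had 2, at Plcg2, a phospholipase downstream of TREM2, and Abcg1, a cholesterol exporter, neither called.

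**Figure D5:**
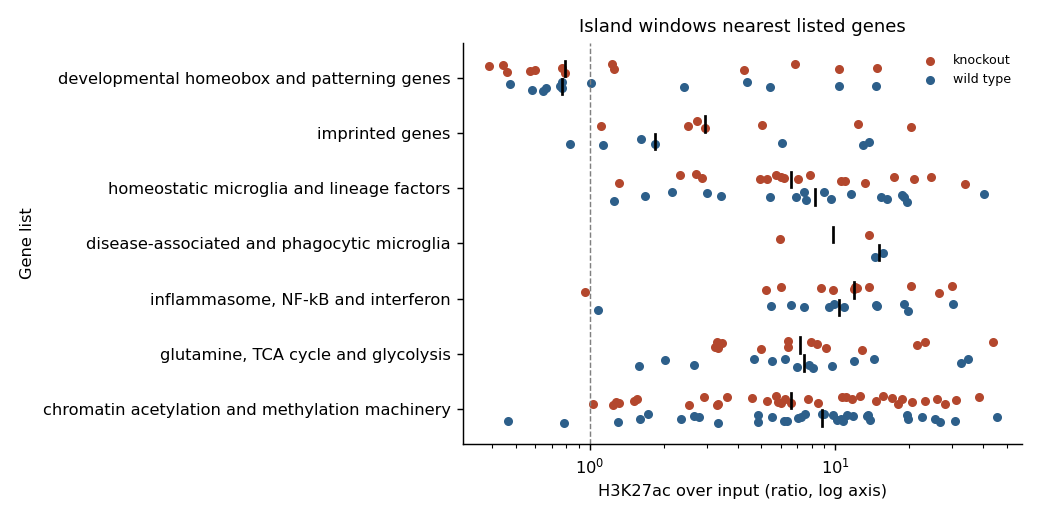
H3K27ac over input (log axis) of each island window nearest a listed gene, by list, in Nlrp3-/- (red, upper row) and wild type (blue, lower row), with bars for medians and a dashed line at equality with input. The windows of developmental genes lie mostly below 1, with medians of 0.794 in Nlrp3-/- and 0.774 in wild type, and those of the other lists mostly above it.

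Few members were called below input. In Nlrp3-/-, 7 tested members were called below input (0.584%, against 1.88% of all windows), at Fam19a3, Lhx1, Nudt14, Poll, Hoxa7, Sim1 and Tmem121. In wild type there were 5 (0.417%, against 1.81%), at Sigirr, Exoc3l4, Kif14, Olfr545 and Sim1. Only Sim1, a transcription factor of hypothalamic neurons, was named in both. These windows were listed after their values were seen. Whether the genotypes differ there is not answered by these lists. The fit of H3K27ac over input cannot answer it either, because it called no window of the series. A Mir9-3hg window, host of a brain microRNA, also had 0 tags in all 6 H3K27ac libraries, against 4 input tags in Nlrp3-/- and 13 in wild type.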

How the data were processed

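H3K27ac and input ChIP-seq of microglia were deposited as a table of raw tag counts per window and library, unadjusted per the file headers. Tags were counted by HOMER on mm10, per the file headers, in 1000 bp windows; the submitters' processing notes also name DESeq2. For the aligner and duplicate handling, no information is given in the sources used. A second, scaled table was not used. The members and gene lists were chosen with earlier results of these data known.

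Counts over all windows were fitted with edgeR 4.0.16 (R 4.3.3): filterByExpr, TMM, quasi-likelihood test, Benjamini-Hochberg threshold 0.05, 3 against 3 H3K27ac libraries without covariates. For H3K27ac against input all 12 libraries were fitted with total tags as library sizes. Standard errors were the log2 fold change divided by root F. DESeq2 1.42.0 was an alternative. The fits were tested on simulated data. Ratios over input added 0.5 CPM. Low tag counts limit precision, and floors of 3 tags cover counting error only.

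Replicate numbers were not used as pairs: between genotypes, deviations of same-numbered H3K27ac libraries correlated at -0.0006 to 0.0033. Same-numbered H3K27ac and input libraries were not compared in this way. Named windows were those of smallest p until 10 were named, the 10 of highest CPM, the 3 highest over input per distance class, up to 3 per gene list by CPM, the 3 lowest over input with at least 10 input tags, and 3 holding the start of another gene; some of these are not reported here. RefSeq starts and sequences came from GRCm38.p6 tables.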

Additional observations from a re-analysis of the deposited data

How the results depend on the processing

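Of the results across windows, the count called between genotypes was 70 with DESeq2, 68 without a filter, 0 in the fit of H3K27ac over input, and 10 to 29 when 1 library was left out, against 24. It was 13 without Nlrp3-/- replicate 1, 11 without Nlrp3-/- replicate 2, 12 without wild-type replicate 1 and 10 without wild-type replicate 2. Called island windows, and likewise the named ones, numbered 2 with DESeq2 and 2 without a filter; with 1 library left out they numbered 0 each time. The single windows gaining a call were Mpp7 and Marcks (DESeq2) and Mpp7 and Cyp2r1 (no filter). The median log2 fold change of tested members was 0.17 in the fit of H3K27ac over input, where that of all windows was 0.20. The cause was not tested. With replicate number as a block, 21 windows and 0 members were called. Same-numbered H3K27ac libraries did not deviate together between genotypes, so the numbers were not taken to pair the genotypes. Whether a number links H3K27ac to input was not tested, though both libraries of wild-type replicate 1 lacked Y-linked tags. With number as a block within each genotype, 1005 of 1035 members tested were called above input in Nlrp3-/- and 934 of 967 in wild type.

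Members called above input numbered 466 in Nlrp3-/- and 462 in wild type at least 1 kb from a TSS, where fewer windows were counted. They numbered 400 in Nlrp3-/- and 417 in wild type with TMM, which centres H3K27ac on input. Alternatives for the median over input were chosen after seeing the data: it was 4.65 in Nlrp3-/- and 4.33 in wild type at least 1 kb away, 2.89 in Nlrp3-/- and 2.61 in wild type for members overlapping no other window, and 5.06 in Nlrp3-/- and 4.71 in wild type with 1 CPM added. Without members holding an annotated start it was 6.31 in Nlrp3-/- and 5.73 in wild type. The median log2 fold change of members, a planned check, lay between -0.02 and 0.01 with 1 library left out. Few tags per window, a median of 26 to 36 in H3K27ac and 2 to 4 in input, limit what could be detected.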
